A study of Mus musculus with 9 samples.

Results

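Chromatin accessibility after birth was followed in heart muscle cells at 9 genes of thyroid hormone action: the receptors Thra and Thrb, their partners Rxra and Rxrg, the deiodinases Dio1, Dio2 and Dio3, the transporter Slc16a10 and the hormone target Klf9. They were taken by symbol from a table with 1 region per gene around its transcription start site (TSS), and 8 of the 9 had a row among its 33844 regions. Dio2 had none and was not analysed here. All 8 stayed in the fit, which tested 33747 regions.

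The assay was ATAC-seq, in which a transposase cuts and tags accessible DNA, on nuclei of CD1 (ICR) mouse cardiomyocytes, purified by sorting for Pcm1, an antigen of the nuclear envelope in these cells. The groups were postnatal days 1, 14 and 56 (P1, P14 and P56), with 3 libraries each that the labels call biological replicates. Hearts were pooled for each library, 12 of them at P1 and 6 or 7 at the later stages, so a library is a pool and not an animal. No genotype or drug distinguishes the stages; surgery is named in the growth protocol, and whether it applied to these hearts is not stated.

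Thyroid hormone enters cells through transporters, is activated or inactivated by deiodinases that remove iodine from it, and binds nuclear receptors that sit on DNA, mostly as pairs with a retinoid X receptor, and change transcription of nearby genes. In rodents its blood level climbs in the first weeks after birth, when the heart switches its myosin, calcium handling and metabolism. Thra encodes the main receptor of heart muscle, and Thrb the other.

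The promoters on which the results turn are shown with their annotated starts. Which start a gene's TSS row covers is not given. In the set of promoters used here, Thrb and Rxrg each had 2 starts, of which only 1 lay in a deposited peak. Rxra had a high count at its TSS row but no peak at either start in that set. The annotated spans of Thrb and Rxra begin upstream of their starts in that set. Sequences are RefSeq's for GRCm38.p6, from 250 bases before to 50 after each start, on the gene's strand; capitals mark AGGTCA, the half-site that thyroid hormone receptors and other nuclear receptors bind, and GGGCGG, the GC box, on either strand (so TGACCT and CCGCCC too).
Thrb start 1 (chr14:17660710-17661009, + strand): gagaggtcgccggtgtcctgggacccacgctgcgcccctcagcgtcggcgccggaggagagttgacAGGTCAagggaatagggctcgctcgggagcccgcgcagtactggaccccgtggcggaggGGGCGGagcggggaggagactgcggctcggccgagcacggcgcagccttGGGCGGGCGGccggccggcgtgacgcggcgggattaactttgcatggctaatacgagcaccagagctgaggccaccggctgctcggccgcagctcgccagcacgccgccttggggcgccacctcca
Thrb start 2 (chr14:17981394-17981693, + strand): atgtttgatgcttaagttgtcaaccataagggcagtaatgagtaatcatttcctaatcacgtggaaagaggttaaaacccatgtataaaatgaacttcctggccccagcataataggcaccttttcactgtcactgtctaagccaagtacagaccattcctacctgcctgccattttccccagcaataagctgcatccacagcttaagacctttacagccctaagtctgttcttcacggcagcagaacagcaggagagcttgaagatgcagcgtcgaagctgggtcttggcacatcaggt
Rxrg start 1 (chr1:167598112-167598411, + strand): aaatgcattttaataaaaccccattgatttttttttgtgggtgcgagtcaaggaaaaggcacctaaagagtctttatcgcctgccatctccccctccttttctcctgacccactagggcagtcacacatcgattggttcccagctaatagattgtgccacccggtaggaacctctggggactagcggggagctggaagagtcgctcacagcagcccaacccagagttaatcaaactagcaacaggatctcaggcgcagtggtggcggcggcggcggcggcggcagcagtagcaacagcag
Rxrg start 2 (chr1:167618015-167618314, + strand): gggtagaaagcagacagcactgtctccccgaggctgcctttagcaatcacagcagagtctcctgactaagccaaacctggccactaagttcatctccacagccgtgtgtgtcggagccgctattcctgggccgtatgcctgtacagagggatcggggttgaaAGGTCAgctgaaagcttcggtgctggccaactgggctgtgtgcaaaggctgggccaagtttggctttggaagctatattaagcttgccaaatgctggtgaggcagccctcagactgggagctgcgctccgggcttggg
Rxra start 1 (chr2:27676951-27677250, + strand): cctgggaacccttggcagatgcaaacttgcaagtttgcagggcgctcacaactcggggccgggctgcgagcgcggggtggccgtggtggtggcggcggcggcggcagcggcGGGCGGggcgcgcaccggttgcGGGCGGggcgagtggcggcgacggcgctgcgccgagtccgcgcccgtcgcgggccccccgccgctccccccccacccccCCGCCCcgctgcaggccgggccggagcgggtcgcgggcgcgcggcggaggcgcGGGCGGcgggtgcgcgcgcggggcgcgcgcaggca

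The first Thrb start is rich in CpG, with 37 CpG dinucleotides and 72.7% G or C, and carries an AGGTCA 184 bases before the start and 3 GC boxes, of which 2 overlap each other. The second Thrb start has 4 CpG and neither motif. In Rxrg the order is different: start 1 has 13 CpG and neither motif, and start 2, which lies in the peak, has 9 CpG and an AGGTCA 88 bases before it. Rxra start 1 has 55 CpG and 4 GC boxes. Over 32851 annotated promoters of the same length the median was 7 CpG (quartiles 3 and 20) and 52.7% G or C. AGGTCA was present in 16.3% of them and GGGCGG in 35.7%, against 3 and 4 of the 11 promoters of the genes studied here. The direct repeat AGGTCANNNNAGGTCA, a classical thyroid hormone response element, was in 0.0152% of all promoters and in 0 of these 11. The table of promoters used here held none for Thra. A match describes letters in this window and no binding.

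The libraries differed in depth and in signal. P1 libraries held 1414979 to 2167369 TSS counts, P14 libraries 481217 to 893032 and P56 libraries 874639 to 1468352 (exact permutation p = 0.0143). The strongest 10% of TSS regions took 32% to 33.1% of the counts in P1 libraries, 34% to 35.1% in P14 libraries and 35.5% to 36.9% in P56 libraries (exact permutation p = 0.00357, the smallest possible). The sorted cell type was checked on 11 cardiomyocyte marker genes, whose median rank stood at percentile 98.2 of all regions. Their summed level was 587, 956 and 1184 CPM (counts scaled by TMM to a common library total) in P1 replicates 1 to 3, 890, 1101 and 994 CPM at P14 and 1032, 2559 and 1396 CPM at P56. P1 replicate 1 was the lowest library and P56 replicate 2 the highest. Summed levels of 8 endothelial, 7 fibroblast, 7 leukocyte, 6 smooth muscle and 4 erythroid markers at P56 were 443 to 499, 266 to 288, 154 to 175, 283 to 328 and 53.4 to 65.2 CPM, against 387 to 488, 280 to 321, 155 to 182, 222 to 234 and 60.9 to 75.4 CPM at P1. The median percentile was 76.4 for the endothelial markers, 75.4 for fibroblast, 59.1 for leukocyte, 58.9 for smooth muscle and 23 for erythroid markers. No marker in the table was at 0 in any library, and the part of depth, signal share and other cell types in the results was not tested. In such bulk libraries, fewer cells of a type and less signal per cell cannot be told apart.

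Of the 8 genes, Thrb alone passed the test between P56 and P1, and it was more accessible at P56. The TSS of Thrb (ENSMUSG00000021779, GRCm38 chromosome 14, 17659225 to 18040097) had 36.1, 43.9 and 42.5 CPM in the 3 libraries of P1, 44.4, 44.3 and 65.6 CPM in those of P14 and 51.1, 98.6 and 73.4 CPM in those of P56. Every P56 library lay above every P1 library, with P56 replicate 2 the highest of all 9 and P1 replicate 1 the lowest. Thrb averaged 74.4 ± 23.8 CPM at P56 and 40.8 ± 4.17 CPM at P1 (SD, n = 3 each). This was a 1.84-fold difference, 0.88 ± 0.226 on the log2 scale (SE, edgeR quasi-likelihood test, adjusted p = 0.0337). Over all tested regions 2.53% were called, 1.72% higher at P56 and 0.806% lower, against 1 of the 8 genes. Among the top 25% of regions by mean level (33.3 CPM or more), to which Thrb belongs, 5.82% were called higher.

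The direction for Thrb held in all 20 alternatives tried, and the call did not. It was lost in 13 of them, among them the DESeq2 Wald test (0.90, adjusted p = 0.0508), trend-removing loess offsets (0.65, adjusted p = 0.136) and 7 of the 9 fits that each left out 1 library. Without P56 replicate 2 the change was 0.60 (adjusted p = 0.192), without P1 replicate 1 it was 0.78 (adjusted p = 0.102), and without both it was 0.49 (adjusted p = 0.213). Leaving out P1 replicates 2 or 3, P14 replicates 1 or 2 or P56 replicate 3 also ended the call at 0.88 to 0.92 (adjusted p 0.0518 to 0.0798), whereas without P56 replicate 1 the change was 1.09 (adjusted p = 0.0051). The cardiomyocyte markers moved with it, 6 of 11 called higher at P56 with a median of 0.83 (0.10 without both libraries), and their part in the Thrb difference was not tested.

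Thra, the main receptor gene of heart muscle, was not called between any of the stages. Its TSS (ENSMUSG00000058756, GRCm38 chromosome 11, 98740776 to 98769006) had 82.1, 106 and 121 CPM at P1, 94.4, 131 and 81.9 CPM at P14 and 89.9, 135 and 110 CPM at P56. The 3 stages overlapped almost fully. The change at P56 against P1 was 0.12 ± 0.183 (adjusted p = 0.726), and it turned to -0.02 with scaling by library size alone and to -0.16 with the scaling factors of the peak table, settings in which the median of all regions was -0.14 and -0.30, against -0.01 with TMM. Relative to those medians Thra stood at 0.13 and 0.14, and Thrb at 0.88 under both. Relative to the median under loess offsets, Thra stood at -0.16 and Thrb at 0.65. Without both P1 replicate 1 and P56 replicate 2 these relative values were -0.22 and 0.49.

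Since both receptor rows come from the same library, their count ratio does not depend on scaling. The log2 ratio of Thrb to Thra counts was -1.18, -1.25 and -1.50 at P1, -1.07, -1.52 and -0.31 at P14 and -0.80, -0.45 and -0.57 at P56. No P56 library overlapped a P1 library, and P14 spanned both. The mean was -0.61 ± 0.181 at P56 and -1.31 ± 0.169 at P1 (SD, n = 3 each), a difference of 0.70. The exact permutation test of P56 with P1 gave p = 0.1, the smallest that 3 libraries against 3 allow, and the test over the 3 stages gave p = 0.179 (0.179 adjusted over the 2 ratios computed). Leaving out 1 library at a time gave differences of 0.61 to 0.80, and leaving out both P1 replicate 1 and P56 replicate 2 gave 0.69. Without P14 replicate 3, the P14 library with the highest ratio, the exact 3-stage permutation p was 0.0429. The width of the regions is not given, so the ratio compares libraries and not the levels of the receptors.

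**Figure D1:**
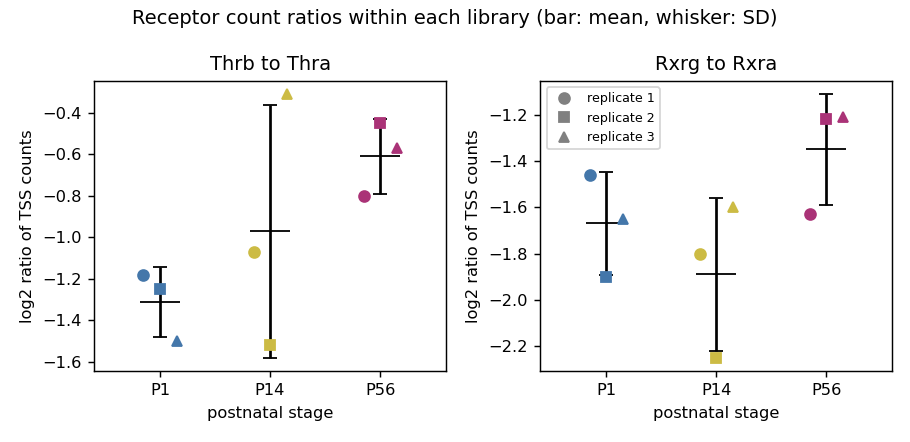
Log2 ratio of TSS counts within each library for Thrb to Thra (left) and Rxrg to Rxra (right), by postnatal stage; points are libraries, bars means and whiskers SD (n = 3). For Thrb to Thra the P56 libraries lie between -0.80 and -0.45 and the P1 libraries between -1.50 and -1.18, with the P14 libraries across both ranges.

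Among the partners, the retinoid X receptors bind DNA together with thyroid hormone receptors and with several other nuclear receptors. Rxrg, the form most typical of muscle and brain, (ENSMUSG00000015843, GRCm38 chromosome 1, 167598362 to 167639623) had 39.1, 31.5 and 32 CPM at its TSS at P1, 44.4, 33.7 and 47.1 CPM at P14 and 51.1, 64 and 55.9 CPM at P56. Every P56 library stood above every P1 and every P14 library. The mean was 57 ± 6.5 CPM at P56 and 34.2 ± 4.24 CPM at P1 (SD, n = 3 each), 1.66-fold (0.73 ± 0.224, adjusted p = 0.0655). Rxrg thus missed the threshold in this test and passed it in limma-voom (0.73, adjusted p = 0.0429). Without P56 replicate 2 the value was 0.63 (adjusted p = 0.188), and without P1 replicate 1 it was 0.83 (adjusted p = 0.092). These shifts went in opposite directions, and with both libraries left out the value was again 0.73 (adjusted p = 0.0708). Thrb was below its main value in each of these fits.

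Rxra, the broadly used retinoid X receptor, had the highest TSS count of the 8 genes, at percentile 98.6 of regions by count per region. Its libraries had 108, 120 and 102 CPM at P1, 158, 169 and 148 CPM at P14 and 159, 150 and 130 CPM at P56 (ENSMUSG00000015846, GRCm38 chromosome 2, 27676445 to 27763319). Both later stages lay wholly above P1 and overlapped each other. The difference was 0.42 ± 0.148 for P56 against P1 (adjusted p = 0.101) and 0.52 ± 0.154 for P14 against P1 (unadjusted p = 0.00177, adjusted p = 0.448), while P56 against P14 was -0.10 (adjusted p = 0.862). With loess offsets the P56 with P1 value was 0.13, or 0.12 relative to the median of all regions. With the factors of the peak table it was 0.14, which relative to that median (-0.30) was 0.43, as with TMM. The log2 count ratio of Rxrg to Rxra was -1.35 ± 0.239 at P56 and -1.67 ± 0.224 at P1 (SD, n = 3 each), with overlapping libraries (exact permutation p = 0.2 for P56 with P1, and 0.107 over the 3 stages).

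**Figure D2:**
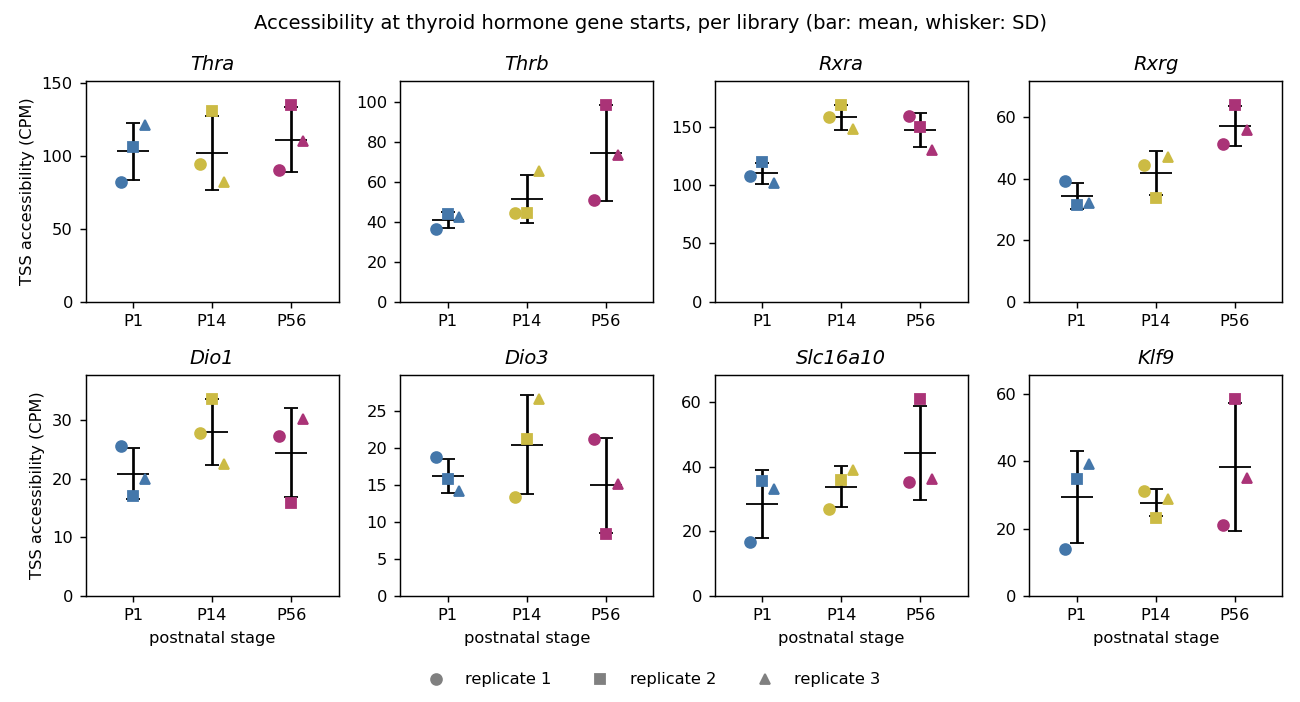
TSS accessibility in CPM of the 8 genes in each of the 9 libraries, by postnatal stage; points are libraries (shape gives the replicate number), bars means and whiskers SD (n = 3), each panel with its own axis from 0. Thrb at 51.1 to 98.6 CPM, Rxra at 130 to 159 CPM and Rxrg at 51.1 to 64 CPM have every P56 library above every P1 library. Thra, Dio1, Dio3, Slc16a10 and Klf9 overlap between these stages.

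Together, 3 of the 8 genes, Thrb, Rxra and Rxrg, had no overlap between P56 and P1 with P56 the higher. This occurred in 10.9% of all regions and in 25.7% of the top 25% by level. The 8 genes had a median log2 difference of 0.42, and 7 were above 0, against a median of -0.01 over all regions and 0.26 over the top 25%. With loess offsets the median of the 8 was 0.19, against 0.01 over all regions. Without both P1 replicate 1 and P56 replicate 2 it was 0.35. An unadjusted p below 0.05 was found for 4 of the 8 by edgeR, by DESeq2 and by limma-voom alike. By edgeR 7278 of the 33747 regions had such a p, and 2636 of the 8437 in the top 25%. After adjustment DESeq2 called 0 of the 8 and limma-voom called 2. Over all regions DESeq2 called 246 higher and 1 lower at P56, and limma-voom 804 higher and 143 lower. P56 replicate 2 gave the highest of the 9 values in 5 of the 8 genes (Thra, Thrb, Slc16a10, Rxrg and Klf9) and the lowest in 2 (Dio1 and Dio3). Over all regions it was the highest in 20.7%, and in the top 25% of regions in 43.1%.

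The deiodinases set hormone activity inside the cell. Dio1, which can both activate and clear the hormone and is best known from liver and kidney, had 25.6, 17.1 and 20 CPM at P1, 27.8, 33.7 and 22.5 CPM at P14 and 27.3, 15.8 and 30.3 CPM at P56. Dio3, which inactivates the hormone and is typical of fetal tissue, had 18.7, 15.8 and 14.2 CPM at P1, 13.3, 21.1 and 26.6 CPM at P14 and 21.1, 8.28 and 15.1 CPM at P56. The stages overlapped for both genes. The differences between P56 and P1 were 0.17 ± 0.272 for Dio1 (adjusted p = 0.744) and -0.17 ± 0.307 for Dio3 (adjusted p = 0.782), and Dio3 turned to 0.18 without P56 replicate 2. These rows held few reads, 10 to 43 counts per library for Dio3 and 11 to 59 for Dio1, which limits the precision of their differences. Dio1 stood at percentile 62.7 and Dio3 at percentile 44.4 of regions. Neither annotated start lay in a peak, the nearest peak being 5441 bp from the Dio1 start and 65035 bp from the Dio3 start. Dio3os, a gene annotated on the other strand with its start 1162 bp from that of Dio3, had no row of its own, and the counts carry no strand.

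Slc16a10 encodes a transporter of thyroid hormone and aromatic amino acids. Its TSS had 16.5, 35.6 and 33.1 CPM at P1, 26.7, 35.9 and 38.9 CPM at P14 and 35.2, 61 and 36.1 CPM at P56. P56 replicates 1 and 3 lay beside P1 replicates 2 and 3, so the stages overlapped, and P56 replicate 2 and P1 replicate 1 stood at the ends. The P56 with P1 difference was 0.68 ± 0.28 (adjusted p = 0.156). It was 0.36 without P56 replicate 2, 0.37 without P1 replicate 1 and 0.04 without both.

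Klf9 encodes a zinc finger transcription factor whose transcription thyroid hormone raises directly in several tissues. It had 13.9, 34.9 and 39.4 CPM at its TSS at P1, 31.1, 23.2 and 28.7 CPM at P14 and 21.1, 58.7 and 35 CPM at P56. The spread within P56 exceeded the distance between stages, and the P56 with P1 difference of 0.43 ± 0.317 (adjusted p = 0.444) turned to -0.07 without P56 replicate 2 and to -0.46 without both P56 replicate 2 and P1 replicate 1.

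P14 stood between the other stages for Thrb and Rxrg, without a call on either side. Between P14 and P1, edgeR called 0 of the 8 genes and 0.0119% of all regions. An unadjusted p below 0.05 was found for 1 gene, Rxra, by each of the 3 tools, and DESeq2 and limma-voom also called 0. By edgeR 2900 of the 33747 regions had such a p. Thrb and Rxra had no overlap between these stages with P14 the higher, which occurred in 9.02% of regions. Thrb was at 0.32 ± 0.254 (adjusted p = 0.748). Between P56 and P14, edgeR again called 0 of the 8 and 0.00296% of all regions. Thrb had the lowest p, at 0.56 ± 0.25 (unadjusted p = 0.0326, adjusted p = 0.454). It was the 1 gene with an unadjusted p below 0.05 by edgeR and by limma-voom, against 0 by DESeq2. DESeq2 and limma-voom called 0. Of the 33747 regions, 3402 had an unadjusted p below 0.05 by edgeR. Rxrg was the 1 gene with no overlap, P56 being the higher, which occurred in 7% of regions.

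Whether the step before P14 differed from the step after it was tested as the P1 to P14 change minus the P14 to P56 change. Of the 8 genes edgeR called 0, as did DESeq2 and limma-voom, and of all regions edgeR called 0.00889%. Rxra had the lowest p (0.63, unadjusted p = 0.0265, adjusted p = 0.818) and was the 1 gene with an unadjusted p below 0.05 by edgeR and by limma-voom, with 0 by DESeq2. The test for any difference over the 3 stages called 0.699% of regions and 0 of the 8 genes, 3 of which had an unadjusted p below 0.05. For neither test is the share of all regions at an unadjusted p below 0.05 given here. The lowest adjusted p values were 0.0882 for Thrb, 0.114 for Rxra and 0.154 for Rxrg. The comparisons share their stages' libraries, and P14 had the shallowest libraries, with 21 to 40 counts at Thrb and 16 to 40 at Rxrg.

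**Figure D3:**
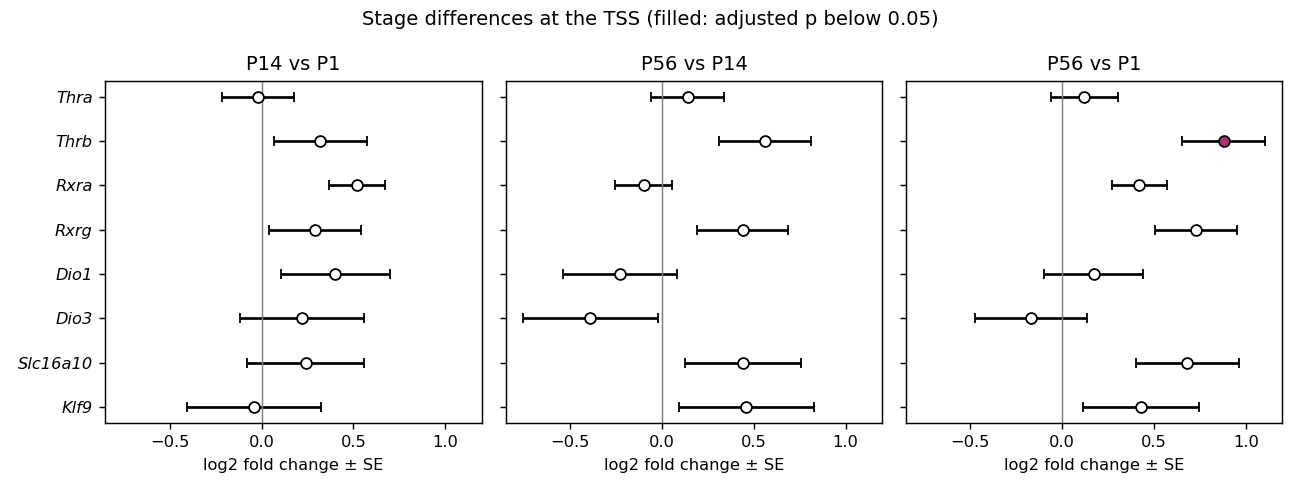
Log2 fold change of TSS accessibility with its SE for the 8 genes in the 3 stage comparisons; the filled point has an adjusted p below 0.05. Thrb at 0.88 in P56 vs P1 is the single filled point, Rxra reaches 0.52 already in P14 vs P1 and is at -0.10 in P56 vs P14, and Dio3 is at -0.17 in P56 vs P1.

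The deposited peaks gave a second view of the same libraries, so they are no independent sample. Of 25915 peaks, 15 overlapped 1 of the genes or lay within 5 kb of it: 5 at Thrb, 4 at Slc16a10, 2 each at Thra and Klf9, 1 each at Dio1 and Rxrg and 0 at Dio2, Dio3 and Rxra. In the peak fit edgeR called 0 of the 15 between P56 and P1, against 0.444% of all peaks. An unadjusted p below 0.05 was found for 3 of them by each of edgeR, DESeq2 and limma-voom, and the other tools also called 0. By edgeR 4151 of the 25885 tested peaks had such a p. In P14 against P1 and in P56 against P14, edgeR called 0 of the 15 and 0.00773% of all peaks in each. DESeq2 and limma-voom also called 0 of the 15 in both. Each tool found an unadjusted p below 0.05 for 0 and 1 of them, in that order. Of the 25885 tested peaks, edgeR found 1563 and 3798.

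The Thrb peak at its first start (chr14:17658991-17661807) had 43.6, 54.4 and 58.1 CPM at P1, 59.6, 65.4 and 78.9 CPM at P14 and 73.6, 123 and 93.5 CPM at P56. All P56 libraries lay above all P1 libraries, as at the TSS row, though whether that row covers this start is not given. The difference was 0.91 ± 0.266 (adjusted p = 0.0861). It missed the threshold in 18 of the 20 alternatives, and without 1 library it ran from 0.68 to 1.07. The fits in which it passed included that without P56 replicate 1 (1.07, adjusted p = 0.0268). The second Thrb start lay 38449 bp from the nearest peak, and the 4 further Thrb peaks, all in the gene body, were at 0.13, -0.16, -0.59 and -0.19, so that 3 of the 4 had the opposite sign to the start peak. None was called. The one at -0.59 ± 0.318 (chr14:17904181-17905771, adjusted p = 0.347) had 31.5, 19.8 and 28.4 CPM at P56, against 43.6, 42.2 and 32.7 CPM at P1, with all P56 libraries below all P1 libraries.

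At Rxrg the peak covered the second start (chr1:167617636-167618904), whereas the first start lay 8825 bp from a peak. The peak had 27.1, 15.5 and 17.2 CPM at P1, 29.8, 24.9 and 41 CPM at P14 and 32.8, 49 and 51.8 CPM at P56. Again no P56 library overlapped a P1 library, and whether the TSS row covers this start is not given. The difference of 1.13 ± 0.325 was 2.2-fold and had the lowest adjusted p of the 15 peaks (0.0784). It missed the threshold in 16 of the 20 alternatives, and without 1 library it ran from 0.98 to 1.43. The fits in which it passed included those without P1 replicate 1 (1.43, adjusted p = 0.0287), without P56 replicate 1 (1.31, adjusted p = 0.0255) and without both P1 replicate 1 and P56 replicate 2 (1.32, adjusted p = 0.0117).

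Thra had a peak at the lower end of its annotated span (chr11:98740004-98741253), where P56 was the lower stage. It had 15.8, 19.8 and 26.7 CPM at P56, against 28.8, 39.9 and 44.2 CPM at P1. All P56 libraries lay below all P1 libraries, the opposite of the Thrb start peak. The difference was -0.87 ± 0.334 (unadjusted p = 0.0107, adjusted p = 0.184), and it stayed below 0 in all 20 alternatives. A larger peak inside the gene (chr11:98749631-98752154) was at -0.11 ± 0.258. The annotation used here gives no strand for Thra, so which end is its start was not taken from it. The span of Nr1d1, a gene of the circadian clock, overlaps that of Thra. P56 lay wholly above P1 at 2 of the 15 peaks and wholly below at 2, against 8.54% and 10.1% of all peaks.

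At the remaining gene start peaks and a peak upstream of Klf9 the differences exceeded their SE and were not called. The Klf9 start peak (chr19:23140499-23144074) was at 0.32 ± 0.262 (adjusted p = 0.546) and a peak 4331 bp upstream of that start (chr19:23133044-23136895) at 0.49 ± 0.253 (adjusted p = 0.32). In the upstream peak P56 had 109, 196 and 135 CPM, against 87.2, 113 and 115 CPM at P1, an overlap that rests on P56 replicate 1. The Slc16a10 start peak (chr10:40140912-40142764) was at 0.42 ± 0.282 (adjusted p = 0.462). At Rxra the nearest peak was 23857 bp from the gene and 77884 bp from its second start, although its TSS row held 72 to 249 counts per library. Of the 395 regions with a count at least that high and an annotated start, 61.3% had a start in a peak, against 40.2% of all 15219 such regions.

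**Figure D4:**
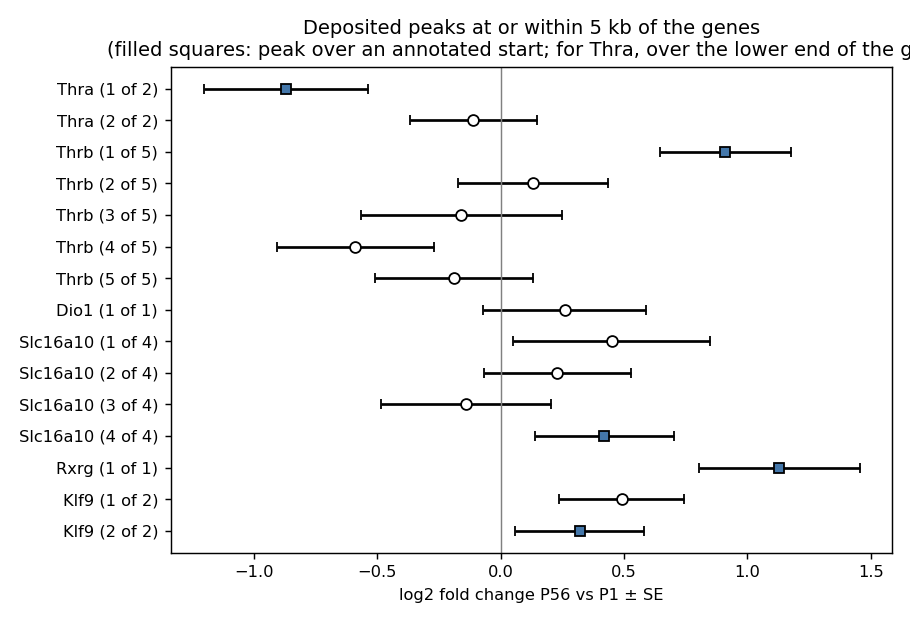
Log2 fold change between P56 and P1 with its SE for the 15 deposited peaks at or within 5 kb of the genes, numbered along the chromosome within each gene; filled squares mark a peak over an annotated start or, for Thra, over the lower end of the gene. The start peaks of Rxrg (1.13) and Thrb (0.91) lie highest and the Thra end peak (-0.87) lowest; none had an adjusted p below 0.05.

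The wider pathway was read in 4 lists for P56 against P1. Beside their counts stand all regions, of which 1.72% were called higher and 49.3% lay above 0, and the top 25% by level, with 5.82% and 78.9%. Of all regions DESeq2 called 246 higher and limma-voom 804. Of 25 other genes of thyroid hormone transport, metabolism and receptor cofactors, 24 were tested. Of these 2 rose and 0 fell, with a median of 0.28 and 16 above 0. The list's median was 0.12 without P56 replicate 2 and 0.02 without both P1 replicate 1 and P56 replicate 2. Gps2, a subunit of a corepressor complex that unliganded receptors recruit, rose by 0.68 ± 0.19 (adjusted p = 0.0479), with 72.2 to 93.3 CPM at P56 and 45.2 to 53 CPM at P1. Its stages did not overlap. The call was at the threshold and was lost in 15 of the 20 alternatives, among them the fits without any 1 of 8 of the 9 libraries (0.55 to 0.74). Rxrb, the remaining retinoid X receptor, was at 0.63 ± 0.184 (adjusted p = 0.0564). DESeq2 called 0 of this list and limma-voom 3.

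Heart genes that thyroid hormone is known to raise rose at P56 in 3 of 13 cases and fell in 0. The list's median was 0.47, and 13 of 13 were above 0. DESeq2 called 1 of the 13 and limma-voom 3. Slc2a4, the insulin-responsive glucose transporter, had 88.1 to 174 CPM at P56 and 29.1 to 80.3 CPM at P1 (1.15 ± 0.248, adjusted p = 0.013). Myh6, the alpha myosin heavy chain of the adult mouse ventricle, was at 1.03 ± 0.268 (adjusted p = 0.0354) with 111 to 276 CPM at P56 and 44.3 to 138 CPM at P1. Slc2a4 did not overlap between the stages, and Myh6 did. Atp2a2, the calcium pump of the sarcoplasmic reticulum, was at 0.90 ± 0.291 (adjusted p = 0.0783). Without both P1 replicate 1 and P56 replicate 2, Slc2a4 was at 0.43 and Myh6 at 0.22, neither called, and the list's median was 0.10. Without P1 replicate 1 alone Slc2a4 and Myh6 were at 0.80 and 0.66, without P1 replicate 2 at 1.17 and 1.03, and without P56 replicate 2 at 0.79 and 0.61, again neither called. Myh6 lost its call in 11 of the 20 alternatives, also without P14 replicates 2 or 3 or P56 replicate 3 (1.03 to 1.09), with the DESeq2 Wald test (1.04, adjusted p = 0.241) and with loess offsets (0.73, adjusted p = 0.159). Slc2a4 lost it in 5 and kept it in DESeq2 (1.16, adjusted p = 0.0305). Of this list, 2 genes (Myh6 and Ryr2) are also among the cardiomyocyte markers.

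Genes that thyroid hormone is known to lower in the heart were 5, and 1 rose and 0 fell. The riser was Myh7, the beta myosin heavy chain of the fetal mouse ventricle, with 174 to 433 CPM at P56, against 48.7 to 104 CPM at P1. Its libraries did not overlap, and the change of 1.93 ± 0.239 (adjusted p = 4.32e-05) kept its call in all 20 alternatives, at 1.19 without both P1 replicate 1 and P56 replicate 2. Thus at the level of TSS accessibility both Myh6 and Myh7 were higher at P56; they are neighbouring, closely related genes, and how reads matching both were counted is not given in the sources used here. The rest were at 0.23 to 0.41 and not called: Pln, which restrains the calcium pump, Adcy5, Adcy6 and Slc8a1. Without P56 replicate 2, Pln turned to -0.76, Adcy6 to -0.13 and Slc8a1 to -0.13, and the list's median to -0.13.

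Of 9 nuclear receptors that also pair with retinoid X receptors, 1 rose and 0 fell, with a median of 0.47 and 9 above 0. DESeq2 called 0 of them and limma-voom 2. Ppard, a fatty acid sensing receptor, had 63.4 to 105 CPM at P56 and 44.6 to 51.4 CPM at P1 (0.77 ± 0.2, adjusted p = 0.0339). Its call was lost in 15 of the 20 alternatives, among them DESeq2 (0.80, adjusted p = 0.0536) and the fits without any 1 of 8 of the 9 libraries (0.55 to 0.81). Nr1h3, an oxysterol receptor, was at 0.65 ± 0.194 (adjusted p = 0.0611) and Rarg, a retinoic acid receptor, at 0.45 ± 0.148 (adjusted p = 0.0824). In P14 against P1 and in P56 against P14, 0 genes of the 4 lists were called by edgeR, DESeq2 or limma-voom. At an unadjusted p below 0.05 edgeR found 4, 0, 2 and 2 genes in P14 against P1 and 4, 7, 2 and 2 in P56 against P14. The order is cofactors, raised, lowered and partners. Over all 33747 regions it found 2900 and 3402 in these comparisons. With loess offsets the P56 with P1 medians of the 4 lists were 0.07, 0.20, 0.49 and 0.20, and with the peak table's factors they were -0.02, 0.18, 0.07 and 0.18, where all regions had a median of -0.30. The list medians were 0.05, -0.01, -0.19 and 0.23 in P14 against P1, and 0.12, 0.76, 0.92 and 0.23 in P56 against P14.

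**Figure D5:**
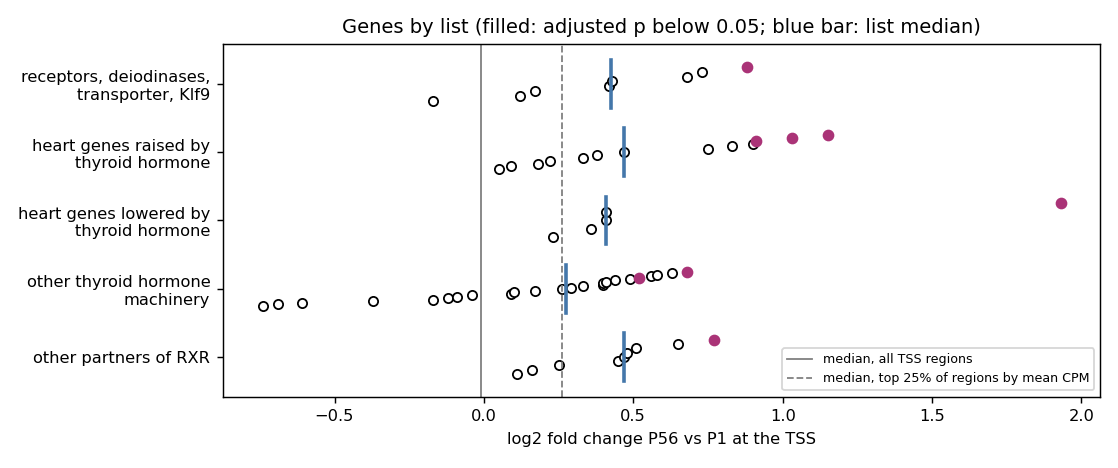
Log2 fold change between P56 and P1 at the TSS for each gene of the members and of the 4 lists; filled points have an adjusted p below 0.05, blue bars are list medians, and vertical lines mark the median of all regions (-0.01) and of the top 25% by level (0.26). The medians of 0.42, 0.47, 0.41, 0.28 and 0.47 from top to bottom lie above both lines, and Myh7 at 1.93 stands farthest right.

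The regions most like 3 of the genes over the 9 libraries were found by Pearson's r of log2 CPM, as a description of libraries that share depth and signal differences. For Thrb they were Zcchc8 (r = 0.971), Arhgap20 (r = 0.962) and Msrb1 (r = 0.961). For Rxrg they were Rps6kb2 (r = 0.97), Ift172 (r = 0.968) and Mtg2 (r = 0.966), and for Klf9 Plekhf2 (r = 0.971), Fam126a (r = 0.969) and Yars2 (r = 0.965). Within the 8 genes Thrb was closest to Rxrg (r = 0.829) and Slc16a10 (r = 0.81), and had r = 0.331 with Thra.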

How the data were processed

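The authors deposited unnormalised read counts per TSS region (1 per gene) and per peak for 9 libraries, and these counts were used as deposited. The submitters' processing notes name the build GRCm38 and featureCounts (version 1.4.2), MACS (1.4.0), BWA (0.7.10), bedtools (2.26), SAMtools (1.3.1) and bcl2fastq (2.17.1.14). Their roles and order, read filters, the region width, the start used for each gene's row and the pooling behind the peaks are not given in the sources used here. Regions with a mean below 10 counts were not in the tables. Gene spans and promoters came from RefSeq GRCm38.p6.

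Each table was fitted whole in edgeR 4.0.16 (R 4.3.3; TMM, default filter, 1 coefficient per stage, quasi-likelihood F test, two-sided, Benjamini-Hochberg adjustment over 33747 regions or 25885 peaks, threshold 0.05). Levels are TMM-scaled CPM, so depth limits precision most at P14. Count ratios (log2, pseudocount 1) were compared by exact permutation of libraries over stages (1680 assignments). The fit was also run on simulated counts with the same spread for every region and no deviating library. That check does not bear on how far the calls here rest on single libraries. The members and the gene lists were chosen with earlier results of these data known; lists name each gene called, or the 3 of lowest p, plus Myh6, Myh7, Atp2a2 and Pln. Results of 2 called list genes are not reported here. P-values measure the spread between pooled libraries. Deviations of same-numbered libraries of different stages correlated at r -0.15 to 0.39 over 9 pairs, and those of differently numbered libraries at -0.44 to 0.43 over 18. This did not settle whether the numbers pair the samples, and they were not treated as pairs.

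Alternatives were other scalings (DESeq2 size factors, library size, the other table's factors, loess offsets with span 0.3), no filter, a mean count of 20, DESeq2 1.42.0, limma-voom (limma 3.58.1), fits of 2 stages, a block on the replicate number, each library left out, and both P1 replicate 1 and P56 replicate 2 left out.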

Additional observations from a re-analysis of the deposited data

How the results depend on the processing

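For the 8 genes in the 3 stage comparisons, 430 of 477 recomputed values kept their direction and their side of the threshold, 13 lost a call, all of Thrb in P56 against P1, 2 gained one, both of Rxrg, and 32 changed sign. No cause of these shifts was tested, except that fits without a library rest on fewer samples. The planned ratio of Dio2 to Dio3 was not run, since Dio2 had no row; DESeq2 and limma-voom were not run for the test over all stages, and Dio3 was absent under a mean count of 20. Depth limits the low rows most, those of Dio1 and Dio3 and all rows at P14; the intervals and tests cover the spread between pooled libraries only.

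The 853 TSS regions called in P56 against P1 (581 higher, 272 lower, 68.1% higher) became 2460 with the factors of the peak table (202 higher, 2258 lower), 239 with loess offsets (123 and 116), 270 at a mean count of 20, 247 with the DESeq2 Wald test and 185 with the 2 stages alone. With library size they split 319 higher and 778 lower. Leaving out 1 library gave 147 (without P56 replicate 2) to 1523 (without P56 replicate 1). For P14 against P1, 4 regions became 1 with loess offsets, 1 with DESeq2, 1 with limma-voom, 2 at a mean count of 20, 7 with the 2 stages alone, 0 to 9 without 1 library and 293 without both P1 replicate 1 and P56 replicate 2. For P56 against P14, 1 region became 0 with DESeq2 size factors, 0 at a mean count of 20, 0 with limma-voom, 11 with library size, 24 with the peak table's factors, 23 with the 2 stages alone, 0 to 101 without 1 library and 21 without both. Among peaks, the 115 called in P56 against P1 became 47 with the TSS table's factors, 33 with loess offsets, 44 at a mean count of 20, 72 with DESeq2, 49 with limma-voom, 49 with the 2 stages alone, 0 (without P56 replicate 2) to 649 (without P56 replicate 1) and 691 without both. The 2 peaks of P14 against P1 became 0 with library size, the TSS table's factors, loess offsets or a mean count of 20, 7 with the 2 stages alone, 0 to 41 without 1 library and 1039 without both. The 2 peaks of P56 against P14 became 0 with the TSS table's factors, loess offsets, a mean count of 20, DESeq2 or limma-voom, 14 with the 2 stages alone and 0 to 292 without 1 library. Of the 8 genes, 0 to 1 had a stage difference without 1 library in the test over all stages. The exact 3-stage p of the Thrb to Thra ratio was 0.0429 without P14 replicate 3 at an unchanged P56 with P1 difference of 0.70, and the difference ran from 0.61 to 0.80 without 1 library.

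The sign changes in P56 against P1 were as follows. Thra turned to -0.02 with library size, -0.16 with the peak table's factors, -0.15 with loess offsets, -0.03 at a mean count of 20, -0.04 without P1 replicate 1, -0.05 without P56 replicate 2 and -0.22 without both, and over the fits without 1 library it ran up to 0.26. Dio1 turned to -0.11 with the peak table's factors, above the median of all regions there (-0.30). Without P56 replicate 2 Dio3 turned to 0.18, Klf9 to -0.07, Adcy6 to -0.13, Slc8a1 to -0.13 and Pln to -0.76; without both they were at 0.30, -0.46, -0.43, -0.19 and -1.05, and the other ends of their ranges without 1 library were -0.56, 0.72, 0.67, 0.58 and 0.85. In P14 against P1, Thra ran from -0.22 to 0.13 without 1 library, Dio3 from -0.01 to 0.55, Slc16a10 from -0.07 to 0.43 and Klf9 from -0.41 to 0.27; Klf9 was at 0.17 with limma-voom, and Slc16a10 at -0.09 without both. In P56 against P14, Thra was at -0.02 with the peak table's factors and -0.03 without P56 replicate 2 or without both, Dio1 at 0.04 in each of those last fits, and Klf9 at -0.04 and -0.05; the other ends without 1 library were 0.35, -0.39 and 0.75. Of the peaks in P56 against P1, the inner Thra peak was at 0.17 with the TSS table's factors, a setting in which the median of all peaks was 0.32, against 0.03 with the peaks' own, so that the 4 values above 0 under these factors lay below that median. The Thrb peaks at chr14:17819214-17821819 and chr14:18020093-18021425 were at 0.16 and 0.11 with those factors and at 0.20 and 0.02 without both, and the first also at 0.15 with loess offsets, 0.40 without P1 replicate 1 and 0.05 without P56 replicate 3. The Slc16a10 peak at chr10:40109302-40111315 was at -0.0018 without P1 replicate 3 and -0.14 without P56 replicate 1 (up to 0.77 without both), that at chr10:40127523-40128667 at 0.16 with the TSS table's factors, and its start peak at -0.01 without both (up to 0.57 without P1 replicate 2). The Klf9 start peak was at -0.19 without both (up to 0.58 without P56 replicate 1).

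The replicate numbers were not treated as pairs. Deviations of same-numbered libraries correlated at -0.15 to 0.39 at the TSS and -0.23 to 0.53 at peaks. Those of differently numbered libraries correlated at -0.44 to 0.43 and -0.57 to 0.58, and 5 of 9 libraries were closest to one of their own number. These values do not settle whether the numbers pair the samples. With the replicate block, calls at the TSS were 1982, 12 and 76 in P56 against P1, P14 against P1 and P56 against P14, and 684, 18 and 41 among peaks. Under the block Thrb was at 0.85 (adjusted p = 0.0054) and Rxrg at 0.74 (adjusted p = 0.0294), both called, the start peaks of Thrb (adjusted p = 0.0193) and Rxrg (adjusted p = 0.0204) were called, and 2 of the 8 genes passed the test over all stages. Thra in P14 against P1 was at 0.0024 and Klf9 at 0.11. The exact permutation p of the ratios within blocks was 0.278 for Thrb to Thra and 0.167 for Rxrg to Rxra.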

Other observations

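In the list of other thyroid hormone genes, 3 organic anion transporters that carry thyroid hormone ran against the direction of Thrb in P56 against P1, and they were picked after their values were seen. Slco1c1 had 11.7 to 26.4 CPM at its TSS at P56 and 21.9 to 35.2 CPM at P1, a difference of -0.74 ± 0.288 (edgeR adjusted p = 0.136). Slco1a4 was at -0.69 ± 0.283 (adjusted p = 0.156) and Slco1a5 at -0.61 ± 0.242 (adjusted p = 0.143), Slco1a5 with no overlap between P56 (25.6 to 29.1 CPM) and P1 (36.3 to 47.8 CPM). The share of all TSS regions with P56 wholly below P1 is not given here. None of the 3 passed the threshold, and reads shared between these related genes could not be separated here. Hr, a corepressor that thyroid hormone induces in brain, had 101 to 134 CPM at P56 and 58.3 to 85.7 CPM at P1, without overlap (0.58 ± 0.183, adjusted p = 0.072), and at P14 its libraries, at 92.2 to 143 CPM, also lay above those of P1.

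Among the deposited peaks 5 to 50 kb from the genes, the peak with the largest P56 with P14 difference lay 36997 bp from Dio1 (chr4:107252726-107254468). It had 46.1, 57.7 and 94.1 CPM at P1, 45.6, 49.8 and 44.2 CPM at P14 and 81.4, 99.9 and 96.9 CPM at P56, a 2-fold difference between P56 and P14 (1.00 ± 0.307, edgeR unadjusted p = 0.00171, adjusted p = 0.204) with no overlap. This peak was picked after its values were seen. Of the 25885 tested peaks, 3798 had an unadjusted p below 0.05 by edgeR in P56 against P14. The share of all peaks without overlap between these stages is not given here.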
